A study of Mus musculus with 48 samples.

Results

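The effect of a constitutively active activin receptor was set against the effect of its ligand in AJ-5257-1 (AJ below), a mouse pancreatic neuroendocrine tumour (PanNET) cell line. The comparison used 12 of the 48 polyA RNA sequencing libraries of the series, chosen by their labels as 4 groups of 3. The receptor effect was the change in AJ cells with the plasmid PB-33 ALK7-CA over AJ cells with the empty PB-33 plasmid (vector), both after 24 h of doxycycline (dox) at 2 µg/ml, in batch 1. The ligand effect was the change in vector cells given activin B at 50 ng/ml for 24 h over untreated vector cells, both without dox, in batch 2. The difference of effects was the receptor effect minus the ligand effect on the log2 scale, so a positive value means a larger rise or a smaller fall with the receptor. Batch, dox and plasmid line go with the kind of effect, and none of them can be told apart from receptor against ligand. Whether the ALK7-CA cells were 1 clone or a pool is not given in the sources used here. Cells were plated in triplicate wells, and nothing in the labels says that wells came from separate cultures, so p-values measure the spread between wells.

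ALK7, encoded by Acvr1c, is a type I receptor of the transforming growth factor-β (TGF-β) family that binds activin B together with a type II receptor. The active complex phosphorylates SMAD2 and SMAD3, which join SMAD4 in the nucleus and switch on genes that include brakes of the pathway itself. A constitutively active receptor signals without ligand, whereas activin B can also act through ALK4, another type I receptor, and is held in check by secreted binding proteins such as follistatin.

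Total counts ran from 24.17 to 30.52 M in batch 1 and from 17.98 to 22.3 M in batch 2. All 10 endocrine markers averaged more than 1 CPM (counts per 1 M of the scaled library size), and 9 of 10 leukocyte and 9 of 10 acinar markers were below it. So were 7 of 10 fibroblast, 6 of 10 endothelial and 7 of 10 duct markers. Over the 12 libraries the endothelial markers summed to between 61.7 and 95.1 CPM, with Esam the highest. The duct markers summed to between 66.5 and 119 CPM, with Onecut2 the highest. The endocrine markers summed to between 8028 and 8074 CPM in ALK7-CA libraries, 9928 and 10604 CPM in vector libraries of batch 1, 14327 and 15165 CPM with activin B, and 12036 and 13517 CPM in untreated cells. Chgb was the highest of them, at 4101 to 4563 CPM with ALK7-CA and 6661 to 7070 CPM with vector. Of the 10 endocrine markers, 3 rose and 3 fell with the receptor, and 4 rose and 2 fell with the ligand (all tested genes: 20.2% and 20.9%, and 7.29% and 6.47%). The part of these markers in the results was not tested. ALK7-CA replicate 1 held transcripts of the other cell line of the series, the insulinoma line βTC3: 33 genes typical of βTC3 stood at a median of 5.68% of their βTC3 level there, against 0.00166 to 0.197% in the other 11 libraries. Ins2, an insulin gene, had 619 CPM in that library and between 0 and 0.994 CPM in the other 11. The main counts and classes are therefore also given without this library, and lists and single genes where stated. Untreated AJ vector cells of batch 2 and batch 1 differed in 39.1% of 14624 tested genes (19.5% higher and 19.6% lower in batch 2), so levels are compared only within a batch.

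Mouse Acvr1c itself (chr2:58267453-58357895, minus strand, GRCm38) did not show the plasmid's receptor. It had 6.14, 2.53 and 2.67 CPM in the ALK7-CA libraries, against 10.9, 9.56 and 11.3 CPM in vector libraries. Activin B gave 4.07, 3.47 and 3.31 CPM, against 10.9, 10.4 and 10.2 CPM in untreated cells. Neither pair of groups overlapped, as was so for 48.7% of all tested genes with the receptor and 34.7% with the ligand. Acvr1c was lower with both treatments, with a log2 fold change of -1.49 ± 0.27 (SE; adjusted p = 0.000854) for the receptor and -1.53 ± 0.28 (adjusted p = 0.00275) for the ligand. The difference of effects was 0.04 with a 95% interval from -0.79 to 0.88, and -0.49 without ALK7-CA replicate 1, the highest of its group. These counts therefore do not check the ALK7-CA label.

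Of 15211 tested genes, 6251 passed an adjusted p of 0.05 for the receptor effect (41.1%; 3075 higher and 3176 lower) and 2093 for the ligand effect (13.8%; 1109 higher and 984 lower). The median SE of a log2 fold change was 0.104 for the receptor and 0.106 for the ligand. Both come from 1 fit with a spread shared by the 4 groups, so they do not measure the error of each arm. Leaving out vector 24 h replicate 3 of batch 1 raised the ligand calls to 2591. A 2-fold change or more among the called genes was seen in 1635 genes with the receptor and in 385 with the ligand. The genes called in both numbered 1695, which was 27.1% of the receptor calls and 81.0% of the ligand calls, and 1608 of them moved in the same direction. The difference of effects passed in 2347 genes (15.4%), 1102 with a positive and 1245 with a negative difference. Without ALK7-CA replicate 1, 5651 of 15342 tested genes passed for the receptor, 2020 for the ligand and 2178 for the difference. Across all tested genes, which are not independent replicates, the effects correlated with a Pearson r of 0.49 and a Spearman rho of 0.46, and with 0.39 and 0.44 without ALK7-CA replicate 1.

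Genes were sorted into classes by these tests. Shared genes passed in both effects in the same direction (1608 genes, 10.6% of those tested; 845 up and 763 down). Receptor-only genes passed for the receptor and for the difference but not for the ligand (1572 genes, 10.3%; 748 up and 824 down). Ligand-only genes passed for the ligand and for the difference but not for the receptor (119 genes, 0.782%; 86 up and 33 down). Opposite genes passed in both effects with opposite signs (87 genes, 0.572%; 37 up and 50 down with the receptor). A further 2984 genes passed for the receptor and 279 for the ligand without passing for the difference, and these belong to no class, since a missed call does not separate the effects. Without ALK7-CA replicate 1, 1450 of the shared, 1293 of the receptor-only, 86 of the ligand-only and 72 of the opposite genes kept their class. That fit gave 1501 shared, 1454 receptor-only, 120 ligand-only and 89 opposite genes.

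**Figure D1:**
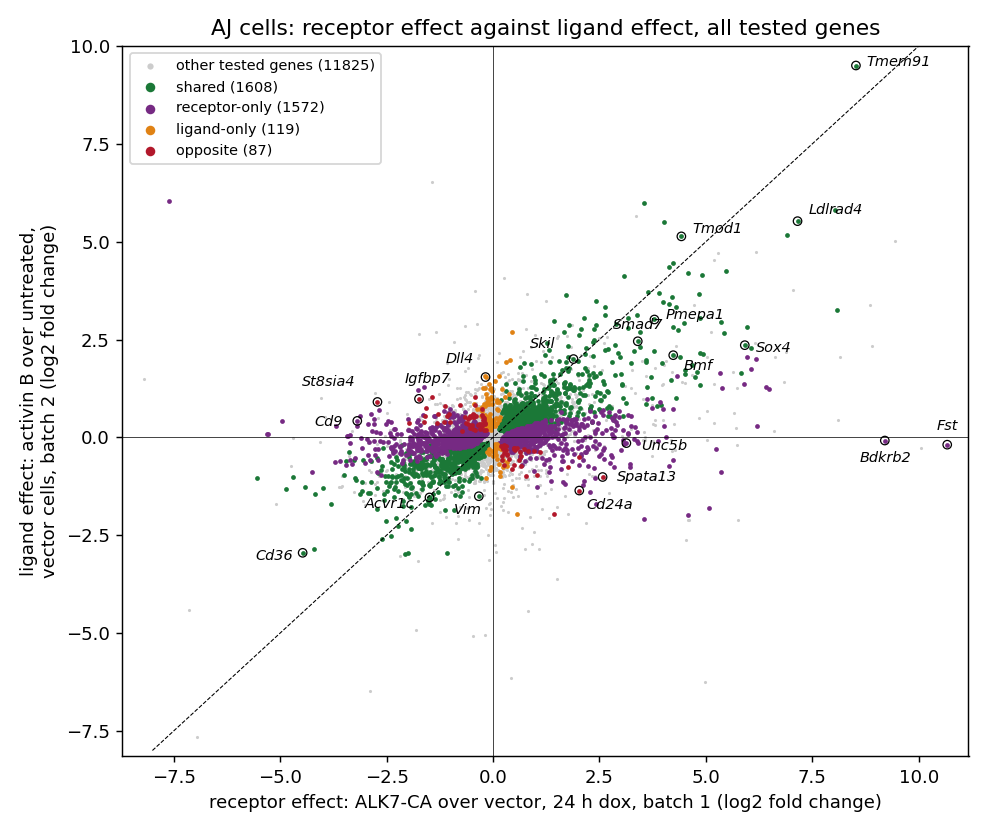
Each point is 1 of 15211 tested genes, with the receptor effect on the horizontal and the ligand effect on the vertical axis, both as log2 fold changes, and the dashed line marks equal effects. Shared genes (green) lie along the line or below it on the right, receptor-only genes (purple) along the horizontal axis out to Fst at 10.67, and ligand-only genes (orange) close to the vertical axis.

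Promoter letters are shown for 1 gene each of the shared (Bmf), receptor-only (Tgif1) and ligand-only (Dll4) class, to set the motif SMAD3 and SMAD4 are known to bind, CAGAC, beside the classes. Each is the 250 bases before the annotated start farthest upstream in the RefSeq table (GRCm38.p6), read 5′ to 3′ on the gene's strand, with CAGAC or its reverse complement GTCTG in capitals. Pmepa1 and Fst have no entry in that table.
Bmf (chr2:118549687-118549936, minus strand): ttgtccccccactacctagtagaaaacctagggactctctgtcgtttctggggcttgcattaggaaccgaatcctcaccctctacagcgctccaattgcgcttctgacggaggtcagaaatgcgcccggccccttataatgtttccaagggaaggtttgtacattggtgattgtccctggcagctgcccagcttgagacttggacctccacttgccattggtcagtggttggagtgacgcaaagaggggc
Tgif1 (chr17:70853533-70853782, minus strand): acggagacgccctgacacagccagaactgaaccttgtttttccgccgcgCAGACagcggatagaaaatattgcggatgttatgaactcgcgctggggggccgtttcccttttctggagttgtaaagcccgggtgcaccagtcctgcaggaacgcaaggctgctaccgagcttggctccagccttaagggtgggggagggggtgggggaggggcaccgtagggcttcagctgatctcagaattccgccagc
Dll4 (chr2:119325534-119325783, plus strand): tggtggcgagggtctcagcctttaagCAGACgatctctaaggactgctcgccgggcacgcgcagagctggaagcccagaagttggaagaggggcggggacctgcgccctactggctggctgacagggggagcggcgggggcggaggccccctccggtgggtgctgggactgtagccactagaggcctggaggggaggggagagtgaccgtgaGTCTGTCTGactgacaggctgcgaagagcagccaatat
The motif, on either strand, was found 0 times in the Bmf window, 1 time in that of Tgif1 and 3 times in that of Dll4, where a pair of the matches overlap by 1 base. Of the 13951 promoter windows of tested genes 40.4% held it, as did 43.7% of shared up, 40.9% of receptor-only up and 38.2% of ligand-only up windows. These shares lay near that of all promoters.

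Several brakes and targets of SMAD signalling rose in both arms. Of 21 tested genes in a list of SMAD2/3 targets and intracellular feedback, 15 rose and 2 fell with the receptor (all tested genes: 20.2% higher and 20.9% lower), and 8 rose and 1 fell with the ligand (all tested genes: 7.29% and 6.47%). The difference passed upward in 6 and downward in 1 (all tested genes: 7.24% and 8.18%). The median log2 fold change of the list was 1.04 for the receptor and 0.37 for the ligand, beside -0.02 and -0.003 over all genes.

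Smad7, the inhibitory SMAD that blocks type I receptors, had 98.4, 107 and 96.0 CPM in ALK7-CA libraries, against 10.6, 9.56 and 8.35 CPM in vector libraries. With activin B it had 28.6, 32.1 and 25.4 CPM, against 5.56, 5.07 and 5.01 CPM in untreated cells. Neither pair of groups overlapped, and the log2 fold changes were 3.40 ± 0.11 (adjusted p = 1.36e-10) for the receptor and 2.46 ± 0.11 (adjusted p = 1.59e-08) for the ligand. The rise was larger with the receptor by 0.94 ± 0.15 (adjusted p = 0.000738). Pmepa1, a membrane protein that keeps SMAD2 and SMAD3 from the receptor, had 166, 167 and 148 CPM with ALK7-CA, against 12, 13.3 and 9.36 CPM with vector. It had 71.6, 69.6 and 72.0 CPM with activin B, against 7.91, 7.36 and 11.2 CPM untreated. Its rises of 3.79 ± 0.15 and 3.01 ± 0.15 also differed, by 0.78 ± 0.20 (adjusted p = 0.0224).

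Skil, the SMAD co-repressor SnoN, rose in both arms with no difference past the threshold. It had 154, 160 and 164 CPM with ALK7-CA, against 41.8, 39.8 and 47.2 CPM with vector. With activin B it had 134, 129 and 112 CPM, against 30.7, 33.8 and 29.2 CPM untreated. The log2 rises were 1.89 ± 0.08 (adjusted p = 2.42e-09) and 2.00 ± 0.09 (adjusted p = 9.43e-09), and the difference of -0.11 had a 95% interval from -0.36 to 0.14. Ldlrad4, a further membrane inhibitor of SMAD2 and SMAD3, was nearly silent in both controls, at 0.507 to 0.718 CPM with vector and 0 to 0.390 CPM untreated. It stood at 74.9 to 93.6 CPM with ALK7-CA and at 7.73 to 8.76 CPM with activin B. Its log2 rises of 7.15 ± 0.27 and 5.53 ± 0.36 did not differ past the threshold (1.63, 95% interval 0.16 to 3.10, adjusted p = 0.139).

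Sox4 and Bmf were shared genes in which the receptor effect was far the larger. Sox4 (chr13:28948919-28953713, minus strand), a transcription factor that TGF-β induces, had 411, 422 and 370 CPM with ALK7-CA, against 7.73, 5.97 and 6.19 CPM with vector. With activin B it had 61.6, 60.1 and 52.5 CPM, against 11.7, 10.7 and 11.7 CPM untreated. The groups did not overlap in either arm, and the log2 rises were 5.92 ± 0.11 (adjusted p = 1.33e-12) and 2.36 ± 0.10 (adjusted p = 8.86e-09), with a difference of 3.56 ± 0.14 (adjusted p = 1.17e-08). Bmf (chr2:118528757-118549687, minus strand), a BH3-only protein that promotes apoptosis, had 71.2, 72.7 and 74.7 CPM with ALK7-CA, against 3.92, 4 and 3.68 CPM with vector. It had 11, 11.1 and 10.7 CPM with activin B, against 2.76, 2.73 and 2.12 CPM untreated. Its rises of 4.23 ± 0.09 and 2.10 ± 0.10 differed by 2.13 ± 0.13 (adjusted p = 3.9e-07).

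Lamb1, Sema3c and Mmp2, matrix and guidance genes of the shared class, also rose more with the receptor. Lamb1, a laminin chain of the basement membrane, had 83.8, 92.6 and 84.3 CPM with ALK7-CA, against 2.28, 2.10 and 1.96 CPM with vector. It had 19.8, 18.5 and 20.8 CPM with activin B, against 2.62, 2.51 and 2.56 CPM untreated, and its difference of effects was 2.42 ± 0.12 (adjusted p = 9.54e-08). Sema3c, a secreted semaphorin, averaged 525 CPM with ALK7-CA and 63.0 CPM with vector, and 141 CPM with activin B and 70.2 CPM untreated (difference 2.05 ± 0.14, adjusted p = 8.28e-07). Mmp2, a gelatinase, averaged 148 CPM with ALK7-CA and 41.6 CPM with vector, and 10.8 CPM with activin B and 6.32 CPM untreated (difference 1.07 ± 0.11, adjusted p = 2.28e-05). Klf10, a TGF-β induced zinc finger factor, differed by 0.96 ± 0.09 in the same sense (adjusted p = 1.25e-05). Over the shared class, 1093 of 1608 genes did not differ between the effects past the threshold, 473 moved more with the receptor and 42 more with the ligand. The median effects were 0.79 with the receptor and 0.56 with the ligand for shared up genes, and -0.63 and -0.40 for shared down genes. A gene has to pass in both arms to be shared, which sets these medians in part.

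**Figure D2:**
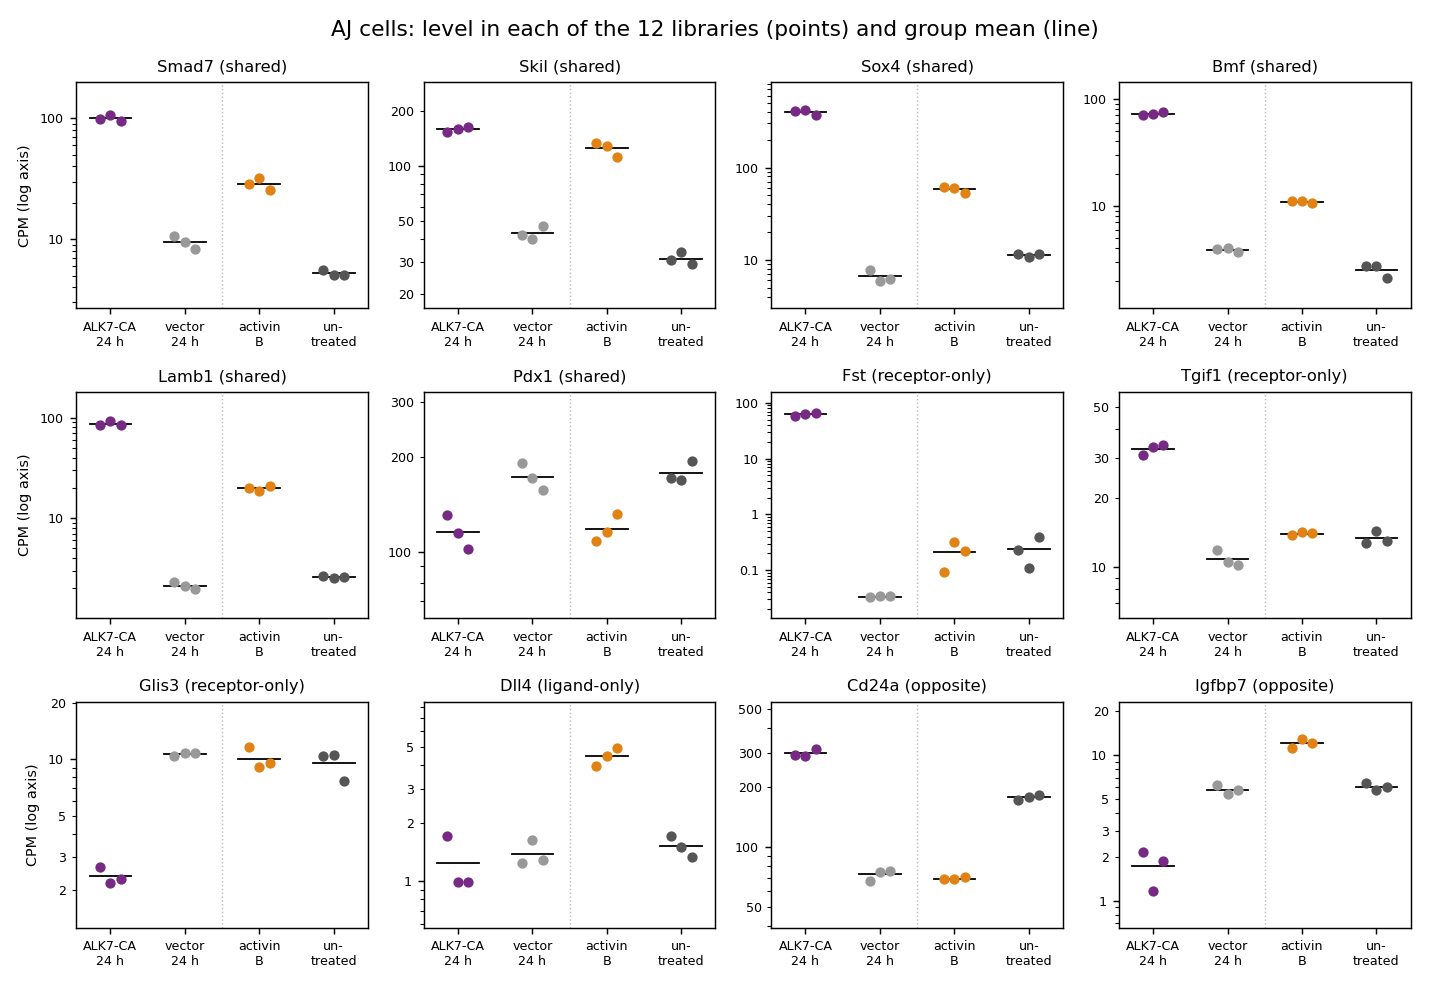
Levels of 12 genes in CPM, on log axes, in each library (points) with group means (lines), for ALK7-CA and vector cells after 24 h of dox (left of the dotted line) and activin B and untreated vector cells (right). Skil and Pdx1 moved the same way in both arms with no difference past the threshold, Sox4, Bmf and Lamb1 rose more with ALK7-CA, Fst, Tgif1 and Glis3 moved with ALK7-CA and not past the threshold with activin B, Dll4 the reverse, and Cd24a and Igfbp7 moved in opposite directions.

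The shared genes with the largest changes in both arms were close to silent in their controls. Tmem91, a little studied membrane protein, had 14, 14.5 and 14.2 CPM with ALK7-CA, against 0.0653, 0 and 0.0338 CPM with vector. Its 1153 counts against 3 gave a ratio of 425.6 (95% counting interval 145.3 to 2067). It had 3.83, 3.33 and 4.09 CPM with activin B and no count in the 3 untreated libraries, so it was at least 72.1-fold higher when the empty group was read as 3 counts in all. Steap4, a metalloreductase, was at least 40.6-fold higher with ALK7-CA, against no count with vector, and its 78 counts with activin B against 1 untreated gave a ratio of 73.67 (12.84 to 2947). These intervals cover counting error only.

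The ligand moved few shared genes further than the receptor did. Tmod1, a cap of actin filaments, had 68.3, 74.0 and 70.7 CPM with ALK7-CA, against 3.36, 3.42 and 3.11 CPM with vector. It had 49.5, 45.1 and 48.1 CPM with activin B, against 1.22, 1.39 and 1.45 CPM untreated, and its difference was -0.71 ± 0.12 (adjusted p = 0.00143). Ddc, the decarboxylase that completes serotonin and dopamine synthesis, averaged 600 CPM with ALK7-CA and 530 CPM with vector, and 998 CPM with activin B and 512 CPM untreated (difference -0.78 ± 0.08, adjusted p = 2.9e-05). Its small receptor effect of 0.18 ± 0.06 was lost without ALK7-CA replicate 3 or without vector replicate 1. Snap25, a SNARE protein of vesicle fusion, had rises of 0.20 ± 0.05 with the receptor and 0.63 ± 0.06 with the ligand. Vim, an intermediate filament of mesenchymal cells, fell by 0.33 on the log2 scale with the receptor and by 1.5 with the ligand (difference 1.17 ± 0.11, adjusted p = 1.63e-05). Of 10 tested epithelial and mesenchymal genes, 5 rose and 1 fell with the receptor, and none rose and 1 fell with the ligand (all tested genes: 20.2% and 20.9%, and 7.29% and 6.47%). Without ALK7-CA replicate 1, 2 of 9 rose and 1 fell with the receptor. With vector cells at 0 h of dox as the control, the receptor effect on Vim was -0.13 (adjusted p = 0.235), and Vim passed as ligand-only. When the ligand effect was taken from AJ cells with wild-type ALK7, the difference was 1.53 for Tmod1. For Vim it was -0.27 (adjusted p = 0.15), with a ligand effect of -0.05 (adjusted p = 0.694). At 2 h of dox Ddc was already lower in ALK7-CA cells than in vector cells, by 0.60 (adjusted p = 0.000725). Vim, Tmod1 and Snap25 were higher there by 0.59, 0.47 and 0.28 (adjusted p = 0.0103, 0.0346 and 0.0147).

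Cell cycle inhibitors were among the shared genes. Of 11 tested CDK inhibitors and D cyclins, 5 rose and 3 fell with the receptor (5 and 4 without ALK7-CA replicate 1). With the ligand 4 rose and none fell (all tested genes: 20.2% and 20.9% with the receptor, 7.29% and 6.47% with the ligand). Cdkn1a, the CDK inhibitor p21, had log2 rises of 0.42 ± 0.07 and 0.51 ± 0.07 (adjusted p = 0.000461 and 0.000402; difference -0.09, 95% interval -0.31 to 0.14). Cdkn2b, the inhibitor p15, had 12.4, 10.8 and 9.81 CPM with ALK7-CA, against 4.27, 3.49 and 3.08 CPM with vector. It had 4.95, 5.66 and 7.01 CPM with activin B, against 3.93, 3.12 and 3.95 CPM untreated, and lost the ligand call (adjusted p = 0.0202) without activin B replicate 3 or untreated replicate 2. Btg2, an antiproliferative gene, rose by 1.73 ± 0.06 and 1.26 ± 0.06 (difference 0.46 ± 0.08, adjusted p = 0.00163). Of 24 tested mitosis genes, 20 fell with the receptor and 12 with the ligand, none rose in either, and the medians were -0.29 and -0.23. Without ALK7-CA replicate 1, 14 fell with the receptor. With vector cells at 0 h of dox as the control, all 24 fell with the receptor and 9 differences were negative, against 2 in the main fit. Over all tested genes that control gave 7176 receptor calls and 3366 differences, against 6251 and 2347 in the main fit. Of 22 DNA replication genes, 6 fell with the receptor and 9 with the ligand. Of all tested genes 20.9% fell with the receptor and 6.47% with the ligand, so the receptor count for replication genes was near that share.

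Endocrine genes held both shared and unequal falls, and genes of other kinds fell in both arms too. In these bulk libraries, fewer cells with a transcript and less of it per cell cannot be told apart. Abcc8, a subunit of the ATP-sensitive potassium channel that couples glucose to secretion, had 120, 106 and 92.3 CPM with ALK7-CA, against 367, 348 and 300 CPM with vector. It had 125, 122 and 127 CPM with activin B, against 284, 281 and 277 CPM untreated, and fell somewhat more with the receptor (difference -0.50 ± 0.12, adjusted p = 0.0158). Pdx1, a beta cell transcription factor, fell by 0.58 with the receptor and by 0.59 with the ligand on the log2 scale (adjusted p = 0.000706 and 0.00215), and the difference of 0.01 had a 95% interval from -0.31 to 0.33. Ros1, a receptor tyrosine kinase, fell by 2.22 and 2.26, and Cd36, a fatty acid transporter, by 4.47 and 2.95 (difference -1.52, adjusted p = 0.161). Cd44, a hyaluronan receptor, fell by 2.07 and 2.98 (difference 0.91, adjusted p = 0.273).

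Other endocrine genes fell much more with the receptor. Gip, an incretin hormone gene, had 64.1, 63.6 and 69.6 CPM with ALK7-CA, against 339, 343 and 318 CPM with vector. It had 601, 610 and 602 CPM with activin B, against 774, 818 and 730 CPM untreated, and its difference was -1.98 ± 0.08 (adjusted p = 1.77e-08). Tac1, the substance P gene, averaged 13.3 CPM with ALK7-CA and 75.1 CPM with vector, and 28.7 CPM with activin B and 73.7 CPM untreated (difference -1.13 ± 0.11, adjusted p = 1.67e-05). Hnf4a, a liver and islet transcription factor, averaged 13.0 CPM with ALK7-CA and 48.7 CPM with vector, and 60.9 CPM with activin B and 79.8 CPM untreated (difference -1.52 ± 0.11, adjusted p = 2.12e-06). Scg2, a granin of secretory vesicles, differed by -0.98 ± 0.09 (adjusted p = 7.79e-06). Of 13 tested islet peptide hormone genes, 5 rose and 8 fell with the receptor and 1 rose and 4 fell with the ligand, and the difference was positive in 2 and negative in 5 (all tested genes: 20.2% and 20.9%, 7.29% and 6.47%, and 7.24% and 8.18%). Without ALK7-CA replicate 1 the receptor rises numbered 3. Irs1, an adaptor of the insulin receptor named from the insulin-like growth factor list, fell by 1.15 with the receptor and by 0.64 with the ligand (difference -0.51 ± 0.11, adjusted p = 0.00503).

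Fst led the receptor-only class. Fst (chr13:114452290-114458951, minus strand) encodes follistatin, which binds activins and keeps them from their receptors. It had 58.9, 63.3 and 66.5 CPM with ALK7-CA, against 0.0326, 0.0339 and 0.0338 CPM with vector, which was 5115 counts against 3, a ratio of 1888 (95% counting interval 645.6 to 9158). With activin B it had 0.0935, 0.319 and 0.221 CPM, against 0.226, 0.112 and 0.390 CPM untreated, and these groups overlapped. The difference of effects was 10.86 ± 0.68 (adjusted p = 4.77e-07) and 10.90 without ALK7-CA replicate 1. In AJ cells with wild-type ALK7 and dox, Fst had 0.880, 1.03 and 0.452 CPM with activin B, against 0.0493, 0.168 and 0.0541 CPM without. With that ligand effect Fst counted as shared, at a log2 change of 3.05 for the ligand and a difference of 7.63. Of 12 tested secreted antagonists of activin and BMP, 9 rose and 1 fell with the receptor (7 and 1 without ALK7-CA replicate 1), and 1 rose with the ligand (all tested genes: 20.2% higher and 20.9% lower with the receptor, 7.29% higher with the ligand).

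Further receptor-only genes were near silence in vector cells. Bdkrb2, the bradykinin B2 receptor, had 10.3, 9.81 and 8.75 CPM with ALK7-CA, against 0, 0 and 0.0338 CPM with vector, a ratio of 859.2 (95% counting interval 153.8 to 33980), and was at or under a floor of 3 counts in both groups of batch 2. Olfm2, an olfactomedin family protein, averaged 10.7 CPM with ALK7-CA and 0.278 CPM with vector, and 0.208 CPM with activin B and 0.258 CPM untreated (difference 5.53 ± 0.85, adjusted p = 0.000905). Rtl1, an imprinted gene of retrotransposon origin with an antisense partner, averaged 9.51 CPM with ALK7-CA and 0.101 CPM with vector, and 0.204 CPM with activin B and 0.0858 CPM untreated (difference 5.26 ± 0.83, adjusted p = 0.000782). The strand setting of the counting is not given, so reads of Rtl1 and its antisense transcript may be mixed. Cftr, the chloride channel of duct cells, had 2.70, 3.62 and 3.45 CPM with ALK7-CA, against 0.359, 0.407 and 0.270 CPM with vector. At 2 h of dox it was already at 14.1, 13.0 and 17.4 CPM with ALK7-CA, against 0.325, 0.471 and 0.268 CPM with vector. The log2 change at 2 h was 5.36 (adjusted p = 4.98e-05). It had 8 counts in all in the 6 libraries of batch 2, and its difference of 3.97 ± 0.91 (adjusted p = 0.00998) was not called without untreated replicate 1.

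Tgif1 and Egr1 were receptor-only transcription factors. Tgif1 (chr17:70844205-70853546, minus strand), a homeobox co-repressor of SMAD2 and SMAD3, had 30.7, 33.4 and 34 CPM with ALK7-CA, against 11.9, 10.5 and 10.2 CPM with vector. It had 13.7, 14.2 and 14.1 CPM with activin B, against 12.8, 14.4 and 13.0 CPM untreated, where the groups overlapped. The receptor effect was 1.59 ± 0.08 (adjusted p = 1.17e-08), the ligand effect 0.07 ± 0.09 (adjusted p = 0.712) and the difference 1.52 ± 0.12 (adjusted p = 2.94e-06). Egr1, an immediate early factor, had 43.4, 43.0 and 58.2 CPM with ALK7-CA, against 8.84, 8.44 and 7.10 CPM with vector. It had 8.6, 9.45 and 8.95 CPM with activin B, against 8.68, 8.76 and 7.74 CPM untreated (difference 2.47 ± 0.18, adjusted p = 1.65e-06). Of 19 immediate early genes, 15 rose and 1 fell with the receptor and 6 rose and 1 fell with the ligand, and the difference was positive in 8 and negative in 1 (all tested genes: 20.2% and 20.9%, 7.29% and 6.47%, and 7.24% and 8.18%). Without ALK7-CA replicate 1, 13 of them rose and 1 fell with the receptor. Fosl2 and Fos, both AP-1 subunits, were shared with larger receptor effects (1.6 and 0.38 for Fosl2, 2.11 and 0.59 for Fos), and each lost its ligand call when untreated replicate 1 was left out, Fos also without untreated replicate 2.

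Receptors were also among the receptor-only genes. Unc5b, a netrin receptor, had 41.6, 46.0 and 38.6 CPM with ALK7-CA, against 5.35, 4.31 and 4.70 CPM with vector. It had 5.37, 5.16 and 6.08 CPM with activin B, against 5.88, 5.86 and 6.62 CPM untreated (difference 3.28 ± 0.16, adjusted p = 6.52e-08). Nrp1, a semaphorin and growth factor co-receptor, averaged 171 CPM with ALK7-CA and 86.1 CPM with vector, and 94.0 CPM with activin B and 87.1 CPM untreated (difference 0.88 ± 0.10, adjusted p = 3.98e-05). Hey1, a Notch and BMP target, differed by 1.69 ± 0.24 (adjusted p = 0.000338). Among receptors of the TGF-β family itself, Acvr1 (ALK2) rose by 0.56 ± 0.06 with the receptor and changed by 0.11 ± 0.07 with the ligand, and the type II receptor Bmpr2 rose by 1.56 ± 0.15, with a ligand effect of 0.47 ± 0.14 at the edge of the threshold (adjusted p = 0.0523). Bmpr2 counted as shared without vector replicate 2 or 3, with DESeq2 and under 3 further alternatives. Bmpr1b, a type I BMP receptor, fell by 1.97 with the receptor (difference -1.75 ± 0.32, adjusted p = 0.00249). The ligand gene Tgfb2 averaged 28.4 CPM with ALK7-CA and 7.57 CPM with vector, and 2.39 CPM with activin B and 1.73 CPM untreated (difference 1.43 ± 0.28, adjusted p = 0.00336), and passed as shared without activin B replicate 3. Gdf11, an activin-like ligand, fell by 0.58 with the receptor and changed by 0.01 with the ligand.

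Other BH3-only genes were receptor-only. Bcl2l11, the BH3-only gene Bim, had 117, 127 and 116 CPM with ALK7-CA, against 91.8, 83.8 and 88.1 CPM with vector. It had 79.6, 84.4 and 81.7 CPM with activin B, against 86.2, 89.2 and 76.8 CPM untreated (difference 0.49 ± 0.09, adjusted p = 0.00269). Hrk, another BH3-only gene, rose by 1.09 ± 0.17 with the receptor (difference 1.27 ± 0.25, adjusted p = 0.00403). Of 19 tested BH3-only and other pro-apoptotic genes, 6 rose and 3 fell with the receptor and 2 rose and 2 fell with the ligand, not far from the shares of all tested genes (20.2% and 20.9% with the receptor, 7.29% and 6.47% with the ligand).

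Receptor-only falls included transcription factors, a granin and tetraspanins. Of 22 tested beta cell transcription factors, Hnf4a, Glis3 and Foxa2 among them, 4 rose and 8 fell with the receptor. With the ligand 3 rose and 5 fell, and the difference was positive in none and negative in 5 (all tested genes: 20.2% and 20.9%, 7.29% and 6.47%, and 7.24% and 8.18%). Glis3, a zinc finger factor needed for beta cell development, had 2.66, 2.20 and 2.29 CPM with ALK7-CA, against 10.4, 10.7 and 10.7 CPM with vector. It had 11.6, 9.13 and 9.50 CPM with activin B, against 10.4, 10.5 and 7.68 CPM untreated (difference -2.23 ± 0.20, adjusted p = 8.72e-06). Foxa2, an endoderm pioneer factor, averaged 31.2 CPM with ALK7-CA and 65.9 CPM with vector, and 75.2 CPM with activin B and 68.7 CPM untreated (difference -1.21 ± 0.15, adjusted p = 0.000145). Chgb, a granin and the most abundant of these genes, had 4101, 4461 and 4563 CPM with ALK7-CA, against 7028, 7070 and 6661 CPM with vector. It had 10452, 10692 and 9751 CPM with activin B, against 9022, 9577 and 8009 CPM untreated, with a ligand effect of 0.22 ± 0.07 that missed the threshold (adjusted p = 0.0602). It passed as opposite with DESeq2, under the replicate block, with all AJ libraries in 1 fit, with the 0 h control, with the ligand effect from cells with ALK7, and in 3 of the 12 fits that leave out 1 library. Cd9 and Tspan8, both tetraspanins, fell by 3.19 and 2.51 with the receptor, and ALK7-CA replicate 1 was the highest of its group for Cd9 (1.51, 0.512 and 0.615 CPM). Ccn3, a matricellular protein, fell by 3.43 (difference -3.47 ± 0.27, adjusted p = 2.49e-06) and Id4, an inhibitor of basic helix-loop-helix factors, by 2.09.

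Brinp3, a neural protein of the BRINP family, had the largest receptor-only fall of the genes named here, and the call rested on its control. It had 0.0409, 0.0732 and 0.239 CPM with ALK7-CA, against 4.54, 4.10 and 6.25 CPM with vector after 24 h of dox, and 0.748, 0.639 and 0.718 CPM with activin B, against 0.678, 0.725 and 0.557 CPM untreated. Its difference was -5.38 ± 0.52, but -1.51 and not past the threshold with vector cells at 0 h of dox as the control.

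Ligand-only genes were few, and their changes were modest. Dll4 (chr2:119325784-119335962, plus strand), a Notch ligand, had 1.72, 0.988 and 0.991 CPM with ALK7-CA, against 1.24, 1.63 and 1.28 CPM with vector, where the groups overlapped. It had 3.97, 4.47 and 4.92 CPM with activin B, against 1.72, 1.51 and 1.34 CPM untreated. The receptor effect was -0.18 ± 0.23 (adjusted p = 0.591), the ligand effect 1.54 ± 0.23 (adjusted p = 0.000489) and the difference -1.72 ± 0.33 (adjusted p = 0.00301). Myo18b, an unconventional myosin, had 6.31, 6.66 and 7.24 CPM with activin B, against 2.08, 1.73 and 2.95 CPM untreated, and a receptor effect of -0.19 ± 0.19 (difference -1.77 ± 0.27, adjusted p = 0.000555), and passed as opposite with vector cells at 0 h of dox as the control. Cartpt, the gene of the CART peptides, rose by 1.97 ± 0.33 with the ligand and Lrrtm1, a synaptic adhesion protein, by 1.92 ± 0.34, but each left the class in 9 of the 12 fits that leave out 1 library. Pamr1, a secreted peptidase-like protein, left it in 3 of the 12 and with the 0 h control. In AJ cells with wild-type ALK7 the ligand effect on Lrrtm1 was 0.30 and did not pass (adjusted p = 0.594). At 2 h of dox Myo18b and Cartpt were already lower in ALK7-CA cells than in vector cells, by 0.96 and 1.14 (adjusted p = 0.00875 and 0.0230). Dll4, Lrrtm1 and Pamr1 had changes of -0.88, -0.01 and -0.45 there that did not pass.

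Among ligand-only falls, Itpkb, a kinase of inositol trisphosphate, had 92.3, 98.7 and 88.9 CPM with ALK7-CA, against 90.5, 83.2 and 76.6 CPM with vector. It had 59.7, 61.7 and 64.5 CPM with activin B, against 116, 112 and 116 CPM untreated (difference 1.05 ± 0.09, adjusted p = 7.58e-06). Its receptor effect of 0.16 ± 0.06 (adjusted p = 0.0632) passed in several alternatives, which made it an opposite gene there. Cntn4, a neural adhesion protein, fell by 1.05 with the ligand and changed by -0.17 with the receptor (difference 0.88 ± 0.20, adjusted p = 0.00916). Flrt3 and Tspan6 fell by 0.72 and 0.76 with the ligand, Flrt3 with a class that changed in 3 of the 12 fits and Tspan6 in 1. Flrt3 passed as opposite under the replicate block, as did Tspan6 with the 0 h control. In AJ cells with wild-type ALK7 neither fall passed, with ligand effects of -0.28 (adjusted p = 0.219) for Flrt3 and -0.17 (adjusted p = 0.385) for Tspan6. At 2 h of dox Cntn4, Itpkb and Tspan6 were already higher in ALK7-CA cells than in vector cells, by 0.99, 0.55 and 0.68. Their adjusted p were 0.000809, 0.00367 and 0.00509, and Flrt3 had a change of 0.13 that did not pass.

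Opposite genes moved in different directions in the arms. Cd24a (chr10:43578284-43584265, plus strand), a cell surface glycoprotein of progenitor cells, had 292, 287 and 312 CPM with ALK7-CA, against 67.8, 74.9 and 75.9 CPM with vector. It had 68.9, 68.8 and 70.9 CPM with activin B, against 174, 178 and 183 CPM untreated. No groups overlapped within an arm, and the rise of 2.03 ± 0.06 with the receptor and the fall by 1.36 with the ligand gave a difference of 3.38 ± 0.08 (adjusted p = 9.23e-11). The gene has processed pseudogenes, whose reads the counting could split. Spata13, a guanine nucleotide exchange factor, had 31.2, 29.4 and 26.0 CPM with ALK7-CA, against 5.38, 4.51 and 4.63 CPM with vector. It had 2.29, 3.06 and 2.82 CPM with activin B, against 6.24, 5.07 and 5.12 CPM untreated (difference 3.59 ± 0.19, adjusted p = 1.2e-07).

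Igfbp7, a secreted binding protein of insulin-like growth factors, went the other way. It had 2.17, 1.17 and 1.88 CPM with ALK7-CA, against 6.27, 5.39 and 5.75 CPM with vector. It had 11.1, 12.9 and 12.2 CPM with activin B, against 6.42, 5.80 and 6.01 CPM untreated (difference -2.72 ± 0.24, adjusted p = 8.59e-06). St8sia4, a polysialyltransferase, fell by 2.71 with the receptor and rose by 0.91 ± 0.14 with the ligand, and Spp1, the matrix protein osteopontin, fell by 1.13 and rose by 0.81 ± 0.16. In AJ cells with wild-type ALK7, activin B lowered St8sia4 by 1.06 (adjusted p = 0.000169) and left Spp1 with a change of -0.05 (adjusted p = 0.748). Th, the rate-limiting enzyme of catecholamine synthesis, rose by 0.49 ± 0.10 with the receptor and fell by 0.70 with the ligand, and Id2, a BMP target, fell by 0.45 and rose by 0.53 ± 0.08.

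For the lists that follow, the shares of all tested genes were 20.2% higher and 20.9% lower with the receptor, 7.29% and 6.47% with the ligand, and 7.24% positive and 8.18% negative for the difference. Among them, 23 genes of granins, prohormone processing and vesicles were tested: 2 rose and 9 fell with the receptor, 6 rose and 5 fell with the ligand, and the difference was positive in 1 and negative in 9. Of 19 endoplasmic reticulum (ER) chaperone and unfolded protein response genes, 8 rose and 2 fell with the receptor, none rose and 7 fell with the ligand, and the difference was positive in 7 and negative in none (4 and none without ALK7-CA replicate 1). Of 23 glycolysis and hypoxia genes, 3 rose and 12 fell with the receptor and 2 rose and 2 fell with the ligand, with 8 negative differences and 1 positive. Without ALK7-CA replicate 1, 3 of them rose and 14 fell with the receptor, with 7 negative differences and 1 positive. Of 27 nuclear oxidative phosphorylation genes, 15 fell with the receptor (11 without ALK7-CA replicate 1) and 1 with the ligand, with none higher in either, but only 2 differences passed. Of 18 Notch pathway genes, 8 rose and 4 fell with the receptor and 4 rose and 1 fell with the ligand.

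**Figure D3:**
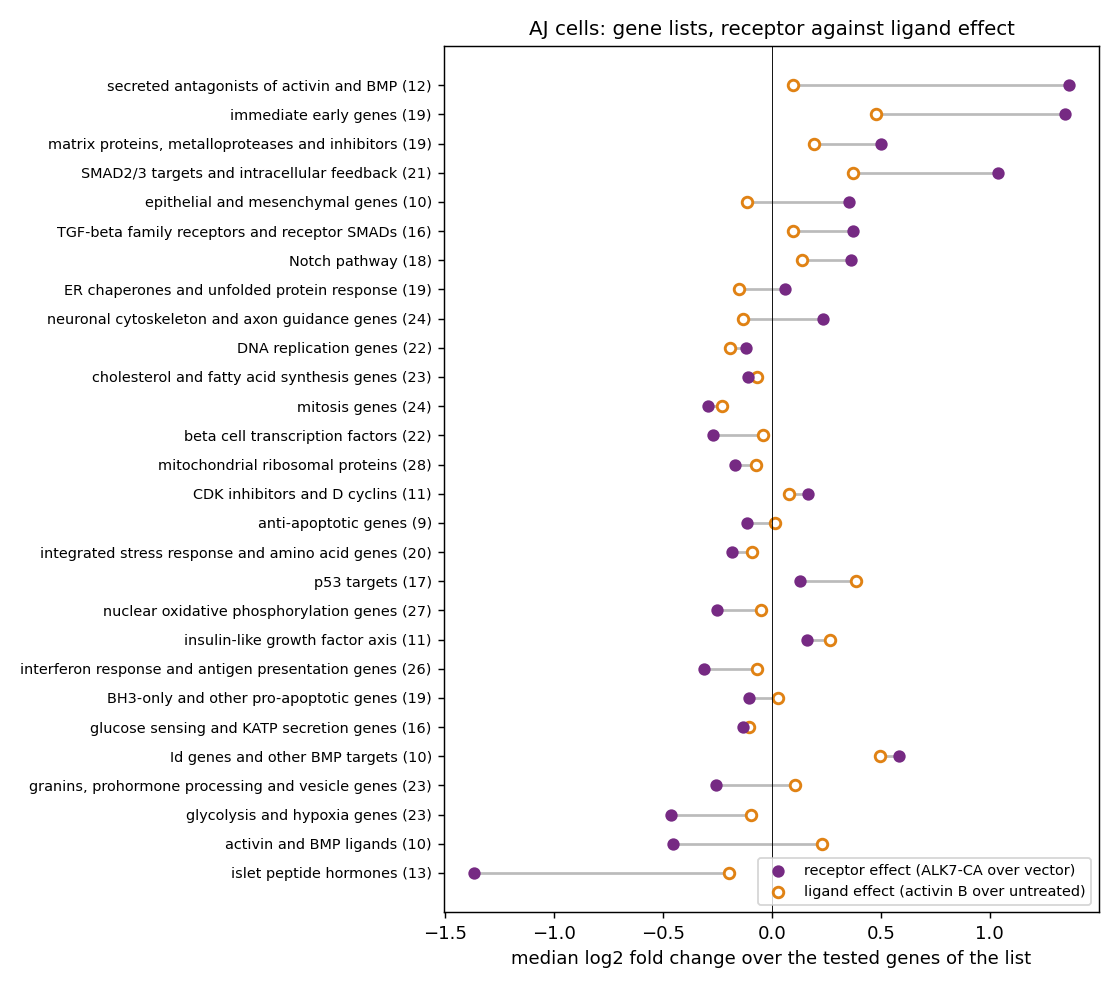
Median log2 fold change over the tested genes of each list (number tested in parentheses), for the receptor effect (filled) and the ligand effect (open), ordered by the median difference of effects. Secreted antagonists (receptor 1.36, ligand 0.10) and immediate early genes (1.34 and 0.48) lie at the top, and islet peptide hormones (-1.37 and -0.20) at the bottom.

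The classes were then followed in libraries that had no part in defining them. AJ cells with wild-type ALK7 and 24 h of dox, with activin B against without, called 35.1% of 14337 tested genes (18.4% higher and 16.7% lower). Of shared up genes 790 of 837 tested were higher there (94.4%), of receptor-only up genes 350 of 707 (49.5%) and of ligand-only up genes 65 of 85 (76.5%). Of shared down genes 684 of 754 were lower (90.7%), of receptor-only down genes 242 of 793 (30.5%) and of ligand-only down genes 21 of 32 (65.6%). All these shares were above those of all tested genes. When this ligand effect took the place of that in vector cells, 510 of the 1572 receptor-only genes passed as shared (32.4%) and 655 stayed receptor-only (41.7%), and 1434 of the 1608 shared genes stayed shared (89.2%). Of the 119 ligand-only genes 60 kept their class (50.4%) and 35 passed in no test (29.4%), and 38 of the 87 opposite genes kept theirs (43.7%). Receptor-only genes that became shared included Fst, Bdkrb2, Olfm2, Rtl1, Tgif1, Egr1, Unc5b, Nrp1, Hey1, Acvr1 and Tgfb2, and those that stayed included Bcl2l11, Hrk, Glis3, Foxa2, Cd9, Ccn3, Id4, Tspan8 and Bmpr1b. Tgif1 had 32.2, 31.7 and 30.2 CPM with activin B in these cells, against 14.2, 14.9 and 15 CPM without, a rise of 1.09 ± 0.06 (adjusted p = 8.51e-07). Unc5b had 6.60, 7.47 and 6.82 CPM, against 3.55, 2.97 and 3.08 CPM.

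After 2 h of dox the ALK7-CA line was already apart from the vector line, with 6.13% of 14833 tested genes higher and 6.33% lower. Of the classes, 222 of 710 receptor-only up genes were higher (31.3%) and 221 of 814 shared up genes (27.1%), and 252 of 807 receptor-only down genes (31.2%) and 188 of 759 shared down genes (24.8%) were lower. Of ligand-only up genes none of 85 was higher and 14 were lower (16.5%). Of ligand-only down genes 10 of 32 were higher (31.25%) and 1 was lower (3.13%). Whether these differences at 2 h came from induction or from the lines themselves was not tested. Cd9 was lower by 3.79 on the log2 scale at 2 h (adjusted p = 4.44e-05), Glis3 by 2.05 (adjusted p = 0.00012) and Gip by 1.98 (adjusted p = 1.63e-05) and at 24 h by 3.19, 2.16 and 2.34. Sox4 was higher by 1.58 and Smad7 by 2.39 (adjusted p = 0.000375 and 5.38e-05), against 5.92 and 3.40 at 24 h, and Tgif1, Unc5b and Sema3c had changes of 0.04, 0.09 and -0.07 that did not pass. Some other named genes went opposite ways at 2 h and 24 h. Chgb, Gdf11 and Id2, lower at 24 h, were higher at 2 h by 0.32, 0.32 and 0.67 (adjusted p = 0.0059, 0.00743 and 0.00201). Th, higher at 24 h, was lower at 2 h by 0.95 (adjusted p = 0.00345).

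The classes were also followed in βTC3. ALK7-CA against vector at 24 h called 8.52% of 15027 genes higher, and 390 of 791 shared up genes (49.3%), 151 of 677 receptor-only up genes (22.3%) and 33 of 79 ligand-only up genes (41.8%) were higher. It called 4.81% lower, with 24.7% of shared down and 9.50% of receptor-only down genes. Activin B against untreated called 12.8% higher in βTC3, with 59.0% of shared up, 21.4% of receptor-only up and 47.4% of ligand-only up genes. Dll4, ligand-only in AJ, rose by 2.66 with ALK7-CA in βTC3 (adjusted p = 9.61e-05), Tgif1 rose by 1.24 (adjusted p = 0.000433), and Glis3 and Cd9 had changes of 0.09 and 0.08 that did not pass.

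**Figure D4:**
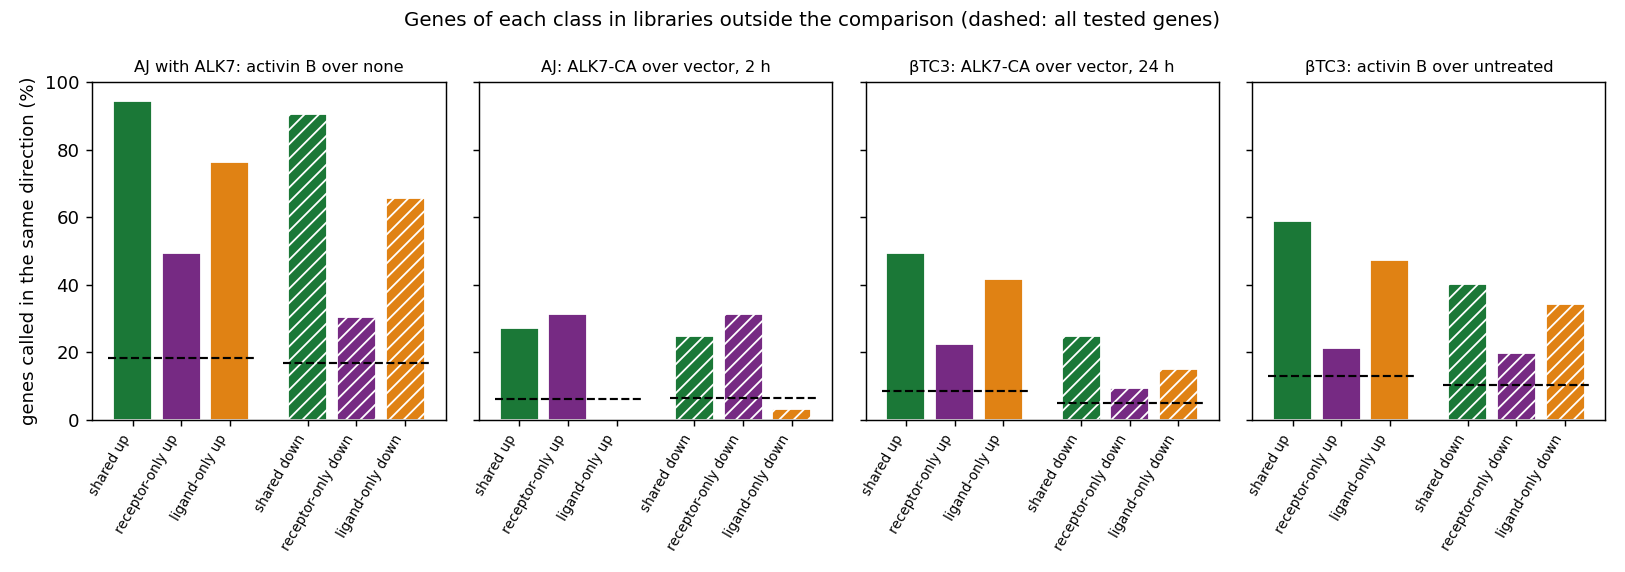
Share of the tested genes of each class, in percent, that were called in the same direction in 4 comparisons of other libraries, with up classes (plain) set against higher calls and down classes (hatched) against lower calls, and the share of all tested genes as dashed lines. Shared genes stand highest in AJ cells with ALK7 given activin B (94.4% and 90.7%), and ligand-only genes are at 0 and 3.13% in ALK7-CA cells at 2 h.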

How the data were processed

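The submitters' processing notes name bcl2fastq 2.17, cutadapt 1.4.2, HISAT2, featureCounts 1.4.4, edgeR and mm10, without strand setting or annotation. The deposited values are counts of reads by gene (39017 Ensembl identifiers), and symbols came from GENCODE M21. The 12 libraries were fitted together in R 4.3.3 with edgeR 4.0.16: filterByExpr (minimum count 10, total 15, proportion 0.7), TMM scaling, robust quasi-likelihood F tests of the 3 contrasts, and Benjamini-Hochberg adjustment over all tested genes at 0.05. CPM use TMM-scaled library sizes. An SE is the log2 fold change over the square root of F. The scripts were tested on simulated data. No replicates had identical values.

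Members and lists were chosen with earlier results of these data known. Genes were named by rule: up to 6 per class and direction with the largest difference (shared genes: largest smaller effect), in the same class without ALK7-CA replicate 1, without overlap of the groups and with a mean count of at least 20; up to 3 per list by adjusted p of the difference; and a fixed set. Not every gene so named is reported here. Replicate numbers were taken to pair libraries where each correlation of residuals, over 8996 genes, was at least 0.1. By this rule batch 1 was paired (0.32, 0.13 and 0.55) and batch 2 was not (0.0057, 0.25 and 0.51, where 1 value failed). The main fit used group means and no pairing, so its p-values and classes do not take the batch 1 pairing into account. Alternatives were DESeq2 1.42.0, RLE scaling, other filters, the replicate block, all AJ libraries in 1 fit, other controls, a threshold of 0.01 and leaving out each library.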

Additional observations from a re-analysis of the deposited data

How the results depend on the processing

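Depth limits the genes near silence, whose folds rest on few counts, and 3 wells a group limit small differences. Leaving out 1 library at a time gave 1808 to 3099 genes for the difference, 5232 to 6748 for the receptor, 1412 to 2591 for the ligand, 1140 to 1859 shared, 1223 to 2057 receptor-only, 77 to 185 ligand-only and 54 to 127 opposite genes. The ligand-only count was 185 without vector 24 h replicate 3 and 77 without activin B replicate 2. The opposite count was 57 without activin B replicate 2, 54 without untreated replicate 1 and 57 without untreated replicate 2. With the replicate number as a block within batch, 3004 genes passed for the difference and 143 were opposite. With all AJ libraries in 1 fit, 143 were opposite and 188 ligand-only. With vector cells at 0 h of dox as control of the receptor effect, 137 were opposite and 200 ligand-only. With the ligand effect from cells with ALK7 and dox, 3889 genes passed for the ligand, 2855 were shared, 975 receptor-only and 202 ligand-only. At a threshold of 0.01 the counts were 1307 for the difference, 1199 for the ligand, 950 shared, 926 receptor-only, 66 ligand-only and 35 opposite, because fewer genes pass. Otherwise the cause was not tested.

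The sign of the difference turned for some genes. Leaving out 1 library gave -0.488 to 0.263 for Acvr1c, -0.0861 to 0.0969 for Pdx1, -0.0946 to 0.248 for Ros1 and, for Ins2, -4.33 to 7.89. With the replicate block the difference was -0.0432 for Acvr1c, with DESeq2 0.132 for Tmem91, and with the 0 h control -0.110 for Pdx1. The ligand effect from cells with ALK7 gave 0.197 for Cdkn1a, 1.53 for Tmod1, -0.267 for Vim and 0.0128 for Lrrtm1. Of the differences of single genes named in the text, taken over all alternatives, 1505 kept direction and side of the threshold, 43 lost and 4 gained the call, and 20 turned sign. These counts do not cover the classes or the receptor and ligand effects. With the ligand effect from cells with ALK7, Fst, Tgif1, Egr1 and Unc5b kept the call for the difference and changed class.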
